A study of Mus musculus with 9 samples.

Results

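The Ms4a genes encode small membrane proteins of leukocytes, and 10 of them were followed in cells rinsed from the peritoneal cavity of diabetic and control mice. The 10 genes (Ms4a1, Ms4a4a, Ms4a4b, Ms4a4c, Ms4a4d, Ms4a6b, Ms4a6c, Ms4a6d, Ms4a7 and Ms4a8a) were taken by name from the 41096 genes of a deposited expression table. Another 9 genes of the table carry an Ms4a name and are given only as background. In diabetic samples Ms4a4b, Ms4a4c and Ms4a6b were higher, by ratios of group means of 5.57, 3.02 and 2.21. None of the 10 was lower at the threshold used.

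All mice were APOE-/-, a genotype that lacks apolipoprotein E and is prone to atherosclerosis on a fatty diet. The 4 diabetic samples came from mice injected with streptozotocin, a toxin of insulin-producing beta cells, at 40 mg/kg, and the 5 control samples from mice injected with citrate buffer. Both groups were injected on 5 days from 8 weeks of age and then ate a western diet for 8 weeks. Both also received 1.5 mL of 3% thioglycollate, an irritant that recruits leukocytes to the peritoneum, 3 days before their cells were washed out in 10 mL of phosphate-buffered saline. The exudate was spun down for RNA extraction, and no step that would separate cell types is described. The labels do not say whether a sample was 1 mouse or a pool, so p-values reflect only how these samples vary, which may be technical.

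Each library held 14156421 to 16169060 reads in genes. The labels call the cells peritoneal macrophages, and the macrophage genes Adgre1 (F4/80), Csf1r and Cd68 averaged 246, 230 and 1052 FPKM in diabetic samples, against 284, 285 and 1109 FPKM in control samples. FPKM values are fragment counts divided by gene length and by a factor for sequencing depth. Here that factor was not the plain read total, as described under the processing. The gene listed as Itgam, another macrophage marker, averaged 0.110 FPKM in diabetic and 0.115 FPKM in control samples. T cell and B cell genes were also present. The 22 listed T cell genes summed to 260 to 783 FPKM in diabetic samples and 163 to 207 FPKM in control samples. The 17 listed B cell genes found in the table summed to 1809 to 3780 FPKM in diabetic and 1276 to 2483 FPKM in control samples. Diabetic 3 stood apart: on the first principal component it lay at 1.44, the other diabetic samples at 20.9 to 30.5 and the control samples at -23.5 to -11.2. In bulk samples more cells of a type and more RNA per cell cannot be told apart.

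Ms4a proteins cross the membrane repeatedly, and several form complexes with other receptors. The best known is Ms4a1, the B cell antigen CD20, a target of therapeutic antibodies. Ms4a4b is a T cell member that associates with the co-stimulatory receptor GITR. Ms4a4a, Ms4a6d, Ms4a7 and Ms4a8a are macrophage members. Ms4a4a associates with the fungal receptor dectin-1, and Ms4a8a marks alternatively activated macrophages in mice. The genes sit side by side on 1 chromosome and arose by repeated duplication, so that some are close copies of each other.

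The closest copies are shown because reads from them are the hardest to assign. The 3 higher genes fall in 2 sets of such copies, Ms4a4b with Ms4a4c and Ms4a4d, and Ms4a6b with Ms4a6c and Ms4a6d. The first 200 coding bases are printed 5′ to 3′ from the GENCODE M21 transcripts (build GRCm38). These 200 bases, with the introns between them, span chr19:11449919-11454716 (Ms4a4b, + strand), chr19:11414817-11416393 (Ms4a4c, +), chr19:11548504-11550330 (Ms4a4d, +), chr19:11520339-11521723 (Ms4a6b, +), chr19:11471105-11472445 (Ms4a6c, +) and chr19:11601912-11603292 (Ms4a6d, - strand). Capitals mark bases that differ from the first gene of the set.
Ms4a4b: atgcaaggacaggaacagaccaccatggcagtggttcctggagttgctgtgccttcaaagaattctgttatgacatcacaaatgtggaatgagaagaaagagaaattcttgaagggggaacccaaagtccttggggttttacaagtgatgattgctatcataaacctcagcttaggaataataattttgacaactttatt
Ms4a4c: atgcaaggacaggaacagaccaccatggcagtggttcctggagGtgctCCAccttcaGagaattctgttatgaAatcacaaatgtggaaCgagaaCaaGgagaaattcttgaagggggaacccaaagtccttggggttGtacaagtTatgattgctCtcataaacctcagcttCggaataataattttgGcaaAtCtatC
Ms4a4d: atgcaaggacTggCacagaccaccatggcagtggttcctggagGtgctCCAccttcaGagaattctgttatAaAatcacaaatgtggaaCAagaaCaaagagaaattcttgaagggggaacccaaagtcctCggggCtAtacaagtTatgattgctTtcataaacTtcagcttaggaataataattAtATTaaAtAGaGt
Ms4a6b: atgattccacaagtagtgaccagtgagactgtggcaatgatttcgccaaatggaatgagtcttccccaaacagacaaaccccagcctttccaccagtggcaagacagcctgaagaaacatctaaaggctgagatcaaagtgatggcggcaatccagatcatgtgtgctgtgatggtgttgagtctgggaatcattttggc
Ms4a6c: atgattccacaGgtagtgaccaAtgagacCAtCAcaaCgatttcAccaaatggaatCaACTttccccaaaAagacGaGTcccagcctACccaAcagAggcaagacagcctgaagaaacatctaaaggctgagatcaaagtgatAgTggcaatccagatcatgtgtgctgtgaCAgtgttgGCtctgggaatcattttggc
Ms4a6d: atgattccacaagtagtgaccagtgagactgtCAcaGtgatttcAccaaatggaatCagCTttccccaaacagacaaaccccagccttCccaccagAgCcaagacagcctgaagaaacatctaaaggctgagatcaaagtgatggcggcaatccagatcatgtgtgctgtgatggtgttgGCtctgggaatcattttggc

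Over these 200 bases Ms4a4c differed from Ms4a4b at 17 bases and Ms4a4d at 26. Ms4a6c differed from Ms4a6b at 26 bases and Ms4a6d at 12. Over whole coding sequences Ms4a4b and Ms4a4c were 91.7% identical, the highest of any pair of members. Within the Ms4a6 set the identity was 80.1% for Ms4a6b with Ms4a6d, 74.7% for Ms4a6b with Ms4a6c and 67.2% for Ms4a6c with Ms4a6d. The 39 pairs outside these sets reached 43.4% to 59.9%. Of all 50-base stretches of a gene's transcripts, 1.53% of those of Ms4a4b, 8.19% of Ms4a4c, 3.44% of Ms4a6b and 5.85% of Ms4a6c also occur in another member, against none in Ms4a1, Ms4a4a, Ms4a7 and Ms4a8a. The number shared was close for Ms4a4b (135 of 8821 stretches) and Ms4a4c (143 of 1747). Their percentages differ mainly because more transcript sequence was counted for Ms4a4b. How the authors assigned reads that match several genes is not given in the sources used here.

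Expression was compared with limma on log2(FPKM + 1). The threshold was an adjusted p below 0.05 (Benjamini-Hochberg) over all 11193 genes tested. A gene was tested if it reached 1 FPKM in at least 4 samples. Of the 10 members, 9 were tested, and each of these was above 1 FPKM in every sample. Ms4a4d lay under the filter. Of the 9, 3 passed as higher, where 2.68% of all genes tested did, and 0 passed as lower, where 2.08% did (4.76% in either direction). The diabetic and control values did not overlap for these 3 members, which holds for 9.42% of all genes tested. Ms4a4b, Ms4a4c and Ms4a6b, and no other member, also passed without diabetic 3 and without diabetic 3 and control 2 together. The median log2 fold change of the 9 was 0.27, with 8 above 0, and over all genes tested it was -0.01, with 5342 above 0. The members' median rests largely on diabetic 3, without which it was 0.08, with 7 above 0. Log2 fold changes are diabetic minus control throughout and, because of the added 1, understate the change of low genes.

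**Figure D1:**
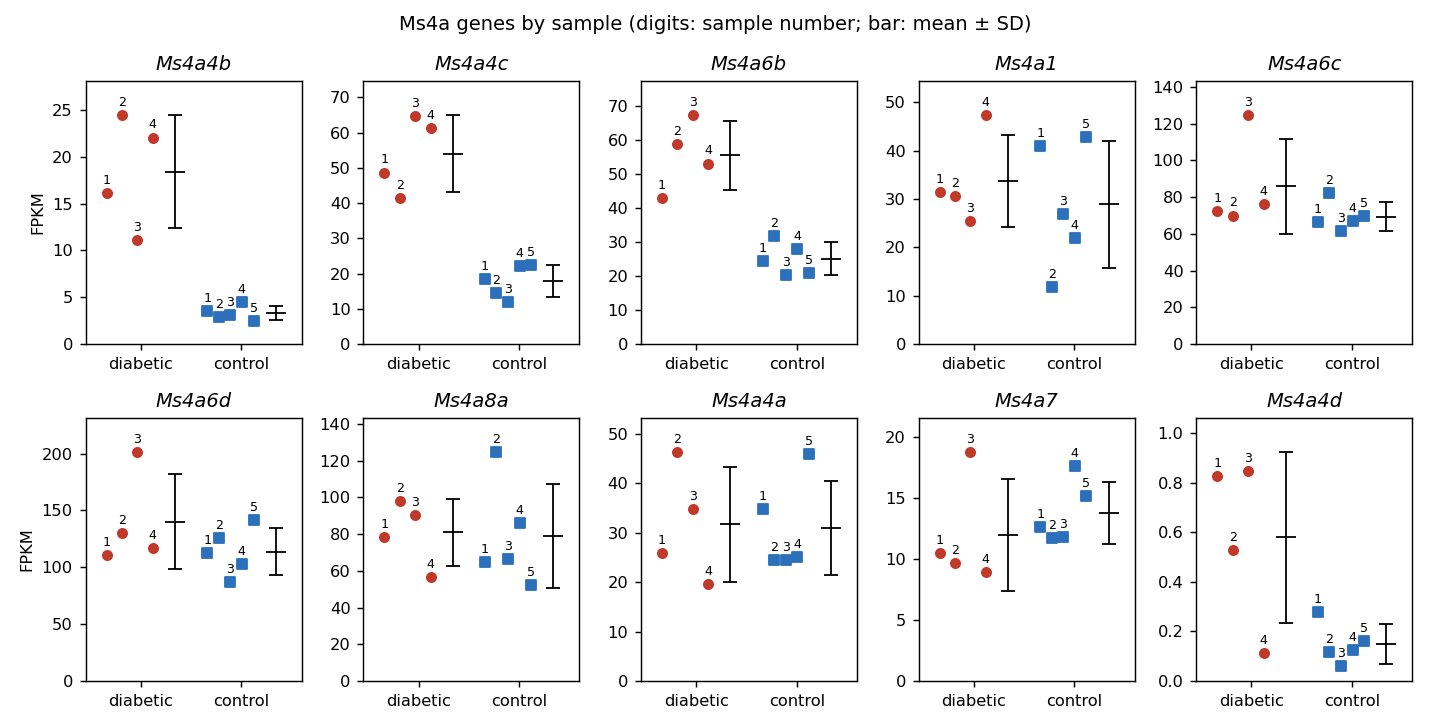
FPKM of each Ms4a member in each sample, with diabetic samples (circles) left of control samples (squares); digits are sample numbers and the bars show mean ± SD (n = 4 diabetic, n = 5 control). In the Ms4a4b, Ms4a4c and Ms4a6b panels every diabetic sample lies above every control sample, while in the other panels the groups overlap.

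The T cell member Ms4a4b differed most. It stood at 16.1, 24.4, 11.1 and 22.1 FPKM in diabetic 1 to 4, against 3.53, 2.91, 3.15, 4.45 and 2.52 FPKM in control 1 to 5. Every diabetic sample was above every control sample, and diabetic 3 was the lowest of the diabetic samples. The means were 18.4 ± 5.99 FPKM in diabetic (SD, n = 4) and 3.31 ± 0.737 FPKM in control samples (SD, n = 5). The log2 fold change was 2.13 (SE 0.21, limma adjusted p = 0.0029), which ranked 3 of 11193 genes by p. The value rests on 5788 reads over the diabetic and 1273 over the control libraries.

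Ms4a4b rose together with other T cell genes. Of the 20 listed T cell genes that were tested, 18 rose and 0 fell, with a median log2 fold change of 1.99 in diabetic samples. The mean log2 deviation of these 20 genes from their control mean was 1.71, 2.43, 0.87 and 2.28 in diabetic 1 to 4 and between -0.17 and 0.24 in control samples. That of Ms4a4b was 2.01, 2.58, 1.51 and 2.44 in diabetic 1 to 4 and between -0.28 and 0.36 in control samples. Both were highest in diabetic 2 and lowest, among diabetic samples, in diabetic 3. Set against the mean of Cd3d, Cd3e and Cd3g, which encode chains of the T cell receptor complex, Ms4a4b was at -0.73 ± 0.34 in diabetic (SD, n = 4) and -0.64 ± 0.34 in control samples (SD, n = 5) on the log2 scale. The difference of -0.09 was within the spread between samples (exact two-sided permutation test, p = 0.69, adjusted p = 0.92 over 4 such tests, where the smallest possible p is 0.0079).

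Genes near to Ms4a4b in pattern were T cell genes as well. Likeness was the root mean square difference between 2 genes' log2 deviations from their control means over the 9 samples, among 9486 genes searched. The difference between the groups is part of these deviations. A gene near to a risen member therefore shows a rise of like size by selection. Among the 3 nearest were Thy1, a surface protein of T cells, at 0.20, and Lef1, a transcription factor of naive T cells, at 0.26. Thy1 averaged 60.6 FPKM in diabetic and 13.5 FPKM in control samples (log2 fold change 1.996, SE 0.26, limma adjusted p = 0.0055). Lef1 averaged 5.87 FPKM in diabetic and 0.421 FPKM in control samples.

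Ms4a4c, the closest copy of Ms4a4b, also rose, but with another order among the diabetic samples. It stood at 48.7, 41.5, 64.7 and 61.3 FPKM in diabetic 1 to 4, against 18.6, 14.5, 11.9, 22.1 and 22.4 FPKM in control 1 to 5. The lowest diabetic value, in diabetic 2, was well above the highest control value, in control 5. The means were 54.1 ± 10.8 FPKM in diabetic (SD, n = 4) and 17.9 ± 4.62 FPKM in control samples (SD, n = 5), a log2 fold change of 1.56 (SE 0.20, limma adjusted p = 0.0044). Diabetic 3, the lowest diabetic sample for Ms4a4b, was the highest for Ms4a4c, and diabetic 2, the highest for Ms4a4b, was the lowest for Ms4a4c.

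Ms4a6b rose in the same samples. It stood at 42.9, 58.7, 67.1 and 53.0 FPKM in diabetic 1 to 4, against 24.5, 31.7, 20.4, 27.8 and 20.8 FPKM in control 1 to 5. The groups did not overlap, and diabetic 3 was again the highest sample. The means were 55.4 ± 10.2 FPKM in diabetic (SD, n = 4) and 25.1 ± 4.80 FPKM in control samples (SD, n = 5), a log2 fold change of 1.12 (SE 0.16, limma adjusted p = 0.0063). The Ms4a6b value rests on 12546 reads over the diabetic and 7032 over the control libraries, and that of Ms4a4c on 5298 over the diabetic and 2184 over the control libraries.

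**Figure D2:**
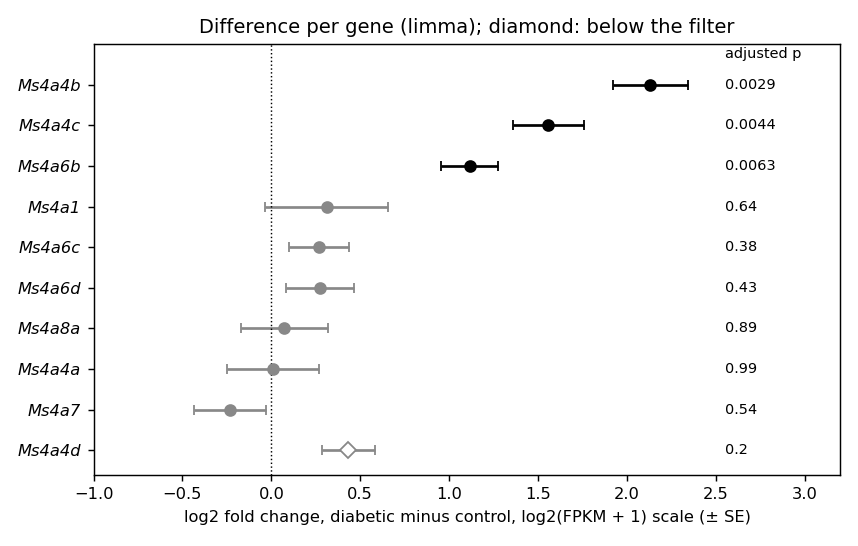
Log2 fold change of each member, diabetic minus control, on the log2(FPKM + 1) scale, with its standard error and the limma adjusted p at the right. Ms4a4b (2.13), Ms4a4c (1.56) and Ms4a6b (1.12) passed (black), 6 others did not (grey), and the open diamond is Ms4a4d, from a fit with no filter on low values.

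Genes induced by interferon, a list set beside these 2 members, were higher in part. Of 12 tested, 4 rose, among them Ifi47, Zbp1 and Usp18, and 0 fell, with a median log2 fold change of 0.69. Ifi47, a GTPase induced by interferon gamma, averaged 69.4 FPKM in diabetic and 28.6 FPKM in control samples (log2 fold change 1.26, SE 0.14, limma adjusted p = 0.0033). Zbp1, a sensor of nucleic acids, averaged 37.8 FPKM in diabetic and 14.7 FPKM in control samples (log2 fold change 1.25, SE 0.23, limma adjusted p = 0.018). The list's mean log2 deviation was 0.83, -0.0050, 1.06 and 0.70 in diabetic 1 to 4 and between -0.39 and 0.22 in control samples. Ms4a4c was at 1.43, 1.21, 1.83 and 1.76 and Ms4a6b at 0.77, 1.22, 1.41 and 1.07 on the same scale in diabetic 1 to 4. All of them were highest in diabetic 3. In diabetic 2 the list lay at its control level while both members did not.

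The T cell genes were highest in diabetic 2, where Ms4a4c was lowest among diabetic samples. Relative to the mean of the 3 Cd3 genes, Ms4a4c lay at 0.83, -0.25, 2.18 and 0.48 in diabetic 1 to 4 and at 0.60 to 1.96 in control samples on the log2 scale. Ms4a6b lay at 0.65, 0.24, 2.24 and 0.27 in diabetic 1 to 4 and at 1.33 to 2.51 in control samples. For Ms4a6b, diabetic 1, 2 and 4 were below every control sample and diabetic 3 was among them. These ratios were added after the values had been seen and were not tested. The part of T cells and of the interferon-induced genes in the higher Ms4a4c and Ms4a6b values was not tested.

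The genes nearest in pattern to Ms4a4c were Ifit1bl1, of the interferon-induced IFIT family, at 0.34, Zbp1 at 0.34 and Ctsw, a protease of cytotoxic lymphocytes, at 0.34. Those nearest to Ms4a6b were Fcgr4, an activating receptor for antibody, at 0.25, and the interferon-induced GTPases Igtp at 0.26 and Ifi47 at 0.27. Fcgr4 averaged 194 FPKM in diabetic and 95.3 FPKM in control samples (log2 fold change 0.97, SE 0.21, limma adjusted p = 0.029). Igtp averaged 41.5 FPKM in diabetic and 17.8 FPKM in control samples (log2 fold change 1.17, SE 0.14, limma adjusted p = 0.0033). The rises of these nearest genes were part of the likeness by which they were picked. Among members, Ms4a4c was closer to Ms4a6b, at 0.46, than to its closest copy Ms4a4b, at 0.61.

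**Figure D3:**
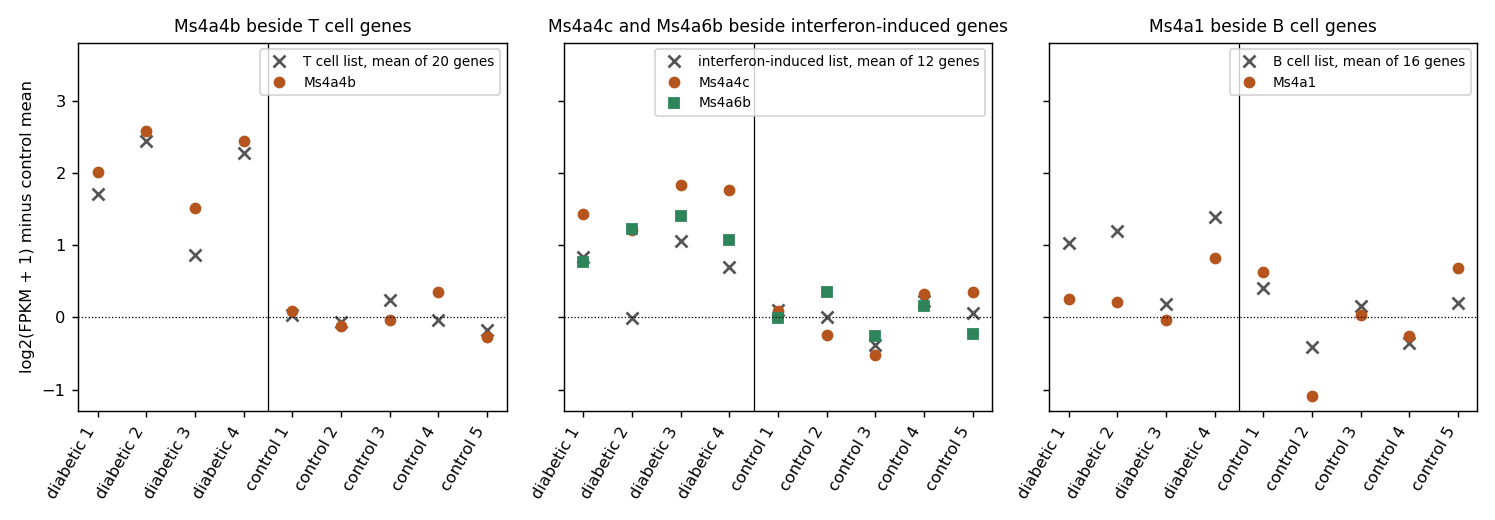
Log2(FPKM + 1) minus the control mean in each sample for Ms4a4b beside the mean of 20 T cell genes, Ms4a4c and Ms4a6b beside 12 interferon-induced genes, and Ms4a1 beside 16 B cell genes, with diabetic samples left of the line and control samples right of it. Among diabetic samples Ms4a4b and the T cell genes were both highest in diabetic 2 and lowest in diabetic 3, among control samples Ms4a4b was highest in control 4 and the T cell genes in control 3, and Ms4a4c and Ms4a6b were highest in diabetic 3.

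Ms4a1, the B cell member, did not pass. It stood at 31.5, 30.6, 25.5 and 47.3 FPKM in diabetic 1 to 4, against 40.9, 11.8, 27.0, 21.9 and 42.8 FPKM in control 1 to 5. The groups overlapped, and the control samples spread from 11.8 FPKM in control 2 to 42.8 FPKM in control 5. The log2 fold change was 0.31 (SE 0.35, limma adjusted p = 0.64). It depended on single samples, at 0.04 without control 2, 0.14 without diabetic 4 and 0.48 without control 5, and with array weights it was 0.07. Of 16 tested B cell genes, 4 rose (Ighd, Vpreb3, Fcer2a and Pou2af1) and 0 fell, with a median log2 fold change of 0.62. Without diabetic 3, 7 rose, and without diabetic 3 and control 2, 9 rose. Over all 11193 genes tested, 619 and 632 rose in these reduced fits, against 300 with all samples. Ms4a1 passed in neither of the reduced fits. Cd79a, a chain of the B cell receptor complex, had a log2 fold change of 0.47 and did not pass either (SE 0.32, limma adjusted p = 0.42).

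The nearest gene in pattern to Ms4a1 was Ccnd2, a cyclin that B cells and other cells use to enter the cell cycle, at 0.10. The T cell member was compared with the B cell member directly. Ms4a4b minus Ms4a1 was -0.86 ± 0.37 in diabetic (SD, n = 4) and -2.68 ± 0.79 in control samples (SD, n = 5) on the log2 scale. Every diabetic value lay above every control value, and the difference was 1.82 (exact two-sided permutation test, p = 0.016, adjusted p = 0.063 over 4 tests), so it did not pass after adjustment.

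The 3 most abundant members, Ms4a6d, Ms4a6c and Ms4a8a, did not pass, nor did Ms4a4a and Ms4a7. Ms4a6d, which associates with the macrophage receptor VSIG4 in mice, was the highest member in both groups. It stood at 111, 131, 201 and 117 FPKM in diabetic 1 to 4, against 112, 126.03, 87.2, 103 and 141 FPKM in control 1 to 5. Its log2 fold change was 0.27 (SE 0.19, limma adjusted p = 0.43), and without diabetic 3 it was 0.08 (adjusted p = 0.77). Ms4a6c stood at 72.6, 70.0, 124 and 76.2 FPKM in diabetic 1 to 4, against 66.6, 82.2, 61.5, 66.8 and 69.8 FPKM in control 1 to 5. Its log2 fold change was 0.27 as well (SE 0.17, limma adjusted p = 0.38), and without diabetic 3 it was 0.08 (adjusted p = 0.70). In both genes diabetic 3 was far above the other diabetic samples, which lay within the control range. Ms4a6c and Ms4a6d were the most alike of all pairs of tested members, at a root mean square difference of 0.15.

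Ms4a8a and Ms4a4a showed no difference beyond their spread. Ms4a8a stood at 78.6, 98.1, 90.2 and 56.7 FPKM in diabetic 1 to 4, against 64.7, 125, 66.4, 86.2 and 52.3 FPKM in control 1 to 5 (log2 fold change 0.07, SE 0.24, limma adjusted p = 0.89). Ms4a4a stood at 25.9, 46.4, 34.8 and 19.7 FPKM in diabetic 1 to 4, against 34.8, 24.5, 24.5, 25.1 and 46.0 FPKM in control 1 to 5 (log2 fold change 0.01, SE 0.26, limma adjusted p = 0.99). In both genes the groups overlapped, and the sign of neither log2 fold change held in every alternative setting. Of 11 tested genes of alternative macrophage activation, 0 rose and 2 fell (Retnla and Mrc1, the mannose receptor), with a median log2 fold change of -0.09. Retnla averaged 174 FPKM in diabetic and 1512 FPKM in control samples, where control 2 alone held 4683 FPKM and also had the highest Ms4a8a value.

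Ms4a7 was the only tested member with a value below 0. It stood at 10.5, 9.64, 18.8 and 8.96 FPKM in diabetic 1 to 4, against 12.6, 11.8, 11.8, 17.6 and 15.2 FPKM in control 1 to 5. Diabetic 1, 2 and 4 were below every control sample and diabetic 3 was above every one. The log2 fold change was -0.23 (SE 0.20, limma adjusted p = 0.54), and without diabetic 3 it was -0.45 (adjusted p = 0.066). Without diabetic 4 it was -0.12, and without control 4 it was -0.14. Of 12 tested macrophage genes, 0 rose and 1 fell (Mrc1), with a median log2 fold change of -0.21. The list's 13 genes in the table summed to 6090 to 10252 FPKM in diabetic and 7725 to 11582 FPKM in control samples. Relative to the mean of Adgre1, Csf1r and Cd68, Ms4a7 was at -4.94 ± 0.19 in diabetic (SD, n = 4) and -4.93 ± 0.36 in control samples (SD, n = 5), a difference of -0.02 (exact two-sided permutation test, p = 0.93, adjusted p = 0.93 over 4 tests).

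The nearest genes in pattern to the members that did not pass were Cd53, a leukocyte tetraspanin, for Ms4a6d at 0.14, and Synj2bp, a protein of the outer mitochondrial membrane, for Ms4a6c at 0.12. Picalm, an adaptor of clathrin-coated vesicles, was nearest to Ms4a7 at 0.11. Prdx4, a peroxiredoxin of the endoplasmic reticulum, was nearest to Ms4a8a at 0.09. Pla2g7, a secreted phospholipase that macrophages make, was nearest to Ms4a4a at 0.22. None of these 5 genes or of Ccnd2 passed (limma adjusted p between 0.25 and 0.84). They were picked for likeness to members that did not pass, so this is no separate result.

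Ms4a4d was near the limit of detection. It stood at 0.828, 0.529, 0.849 and 0.111 FPKM in diabetic 1 to 4, against 0.279, 0.118, 0.0607, 0.124 and 0.161 FPKM in control 1 to 5. These values come from 15, 9, 14 and 2 reads in diabetic 1 to 4 and from 1 to 5 reads in control samples. In the fit with no filter, over 22471 genes, its log2 fold change was 0.43 (SE 0.15, limma adjusted p = 0.20). Diabetic 1, 2 and 3 were above every control sample, and diabetic 4 was among them.

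The other 9 Ms4a genes were low or at 0 in both groups. Ms4a2, the beta chain of the mast cell and basophil receptor for IgE, averaged 0.388 FPKM in diabetic and 0.557 FPKM in control samples, from 67 reads in diabetic and 118 in control libraries. Ms4a14 averaged 0.467 FPKM in diabetic and 0.560 FPKM in control samples. Ms4a3, a gene of granulocyte and monocyte precursors, had 4 reads in diabetic and 3 in control libraries. Ms4a10 had 3 reads in diabetic and 0 in control libraries, and Ms4a15 had 1 in diabetic and 0 in control libraries. Ms4a5, Ms4a12, Ms4a13 and Ms4a18 were listed at 0 in all 9 samples. In the fit with no filter none of the 5 with reads passed (limma adjusted p between 0.59 and 0.88).

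The order of the members by level, per gene length, shifted with the 3 rises. In diabetic samples it ran Ms4a6d, Ms4a6c, Ms4a8a, Ms4a6b, Ms4a4c, Ms4a1, Ms4a4a, Ms4a4b, Ms4a7 and Ms4a4d. In control samples it ran Ms4a6d, Ms4a8a, Ms4a6c, Ms4a4a, Ms4a1, Ms4a6b, Ms4a4c, Ms4a7, Ms4a4b and Ms4a4d. Most neighbours in these orders overlapped. The exceptions were Ms4a7 above Ms4a4d in diabetic samples, and Ms4a6c above Ms4a4a, Ms4a7 above Ms4a4b and Ms4a4b above Ms4a4d in control samples. The 3 genes that rose made up 24.6%, 24.4%, 22.4% and 29.5% of the members' summed FPKM in diabetic 1 to 4, against 12.3%, 11.4%, 11.3%, 14.5% and 11.1% in control 1 to 5. The summed FPKM of the other 7 was 326 to 496 in diabetic and 278 to 381 in control samples.

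Genes whose proteins are known to associate with Ms4a proteins, or that are related to them, were set beside the members. Of 9 such genes, all tested, 1 rose and 0 fell with all samples included. Without diabetic 3, 1 rose and 2 fell, and without diabetic 3 and control 2, 1 rose and 1 fell. Over all 11193 genes tested, 551 and 548 fell in these reduced fits, against 233 with all samples. With all samples the 1 partner gene that rose was Tnfrsf18, which encodes GITR, the partner of Ms4a4b. It averaged 12.2 ± 4.42 FPKM in diabetic (SD, n = 4) and 4.70 ± 0.469 FPKM in control samples (SD, n = 5), a log2 fold change of 1.14 (SE 0.22, limma adjusted p = 0.019). Clec7a, which encodes dectin-1, the partner of Ms4a4a, averaged 41.7 FPKM in diabetic and 68.3 FPKM in control samples and did not pass (log2 fold change -0.73, SE 0.26, limma adjusted p = 0.13). Trem2, a lipid receptor of macrophages whose shed form human MS4A genes are linked to, averaged 113 FPKM in diabetic and 172 FPKM in control samples (log2 fold change -0.59, SE 0.20, limma adjusted p = 0.11). Vsig4, the partner of Ms4a6d, had a log2 fold change of 0.17 (SE 0.32, limma adjusted p = 0.79). The remaining genes, Fcer1a, Fcer1g, Cd40, Tmem176a and Tmem176b, had log2 fold changes between -0.24 and -0.01.

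Few markers of the other cells the exudate could hold passed. Of 8 tested natural killer cell genes 1 rose (Klrd1). Of 5 dendritic cell genes Ccr7 rose and Batf3 fell. Ccr7 stood at 139, 163, 63.0 and 175 FPKM in diabetic 1 to 4, lowest in diabetic 3, as was the T cell list. Which cells the Ccr7 reads came from was not tested. None passed of 10 genes of large peritoneal macrophages, 8 of mast cells and basophils, 3 of eosinophils or 6 of neutrophils. Above 0 were all 8 natural killer, 9 of 10 large peritoneal macrophage and 3 of 5 dendritic cell log2 fold changes. By contrast 2 of 6 were above 0 for neutrophils, 0 of 8 for mast cells and basophils, and 0 of 3 for eosinophils. Without diabetic 3 and control 2, 2 eosinophil genes and 1 mast cell and basophil gene fell, and 1 large peritoneal macrophage gene rose. Over all 11193 genes tested, 632 rose and 548 fell in that fit, against 300 and 233 with all samples. The mast cell and basophil genes summed to 115 to 383 FPKM in diabetic and 287 to 712 FPKM in control samples. The 12 neutrophil genes summed to 103 to 509 FPKM in diabetic and 92.9 to 1075 FPKM in control samples. No gene of these lists that the table holds was at 0 in every sample.

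All 19 Ms4a genes lie on chromosome 19 of the table, between 8697918 and 9480843, a span of 783 kb. The identifiers are those of the C57BL/6NJ gene set, and the table's positions are not those of GRCm38, so they are given as the table has them, with a build not named in the sources used here. Of 33 genes in this span 13 were tested, and 5 rose and 0 fell. Besides the 3 members, the 2 others were noncoding. A lincRNA (MGP_C57BL6NJ_G0005943, 8804787 to 8809446, - strand) averaged 61.3 ± 3.53 FPKM in diabetic (SD, n = 4) and 27.6 ± 5.44 FPKM in control samples (SD, n = 5; log2 fold change 1.14, SE 0.13, limma adjusted p = 0.0033). It was chosen after its values had been seen. Among the 9 genes tested within 200 kb outside the cluster only Cd6, a gene of the T cell list, passed (log2 fold change 1.75, SE 0.31, limma adjusted p = 0.017).

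**Figure D4:**
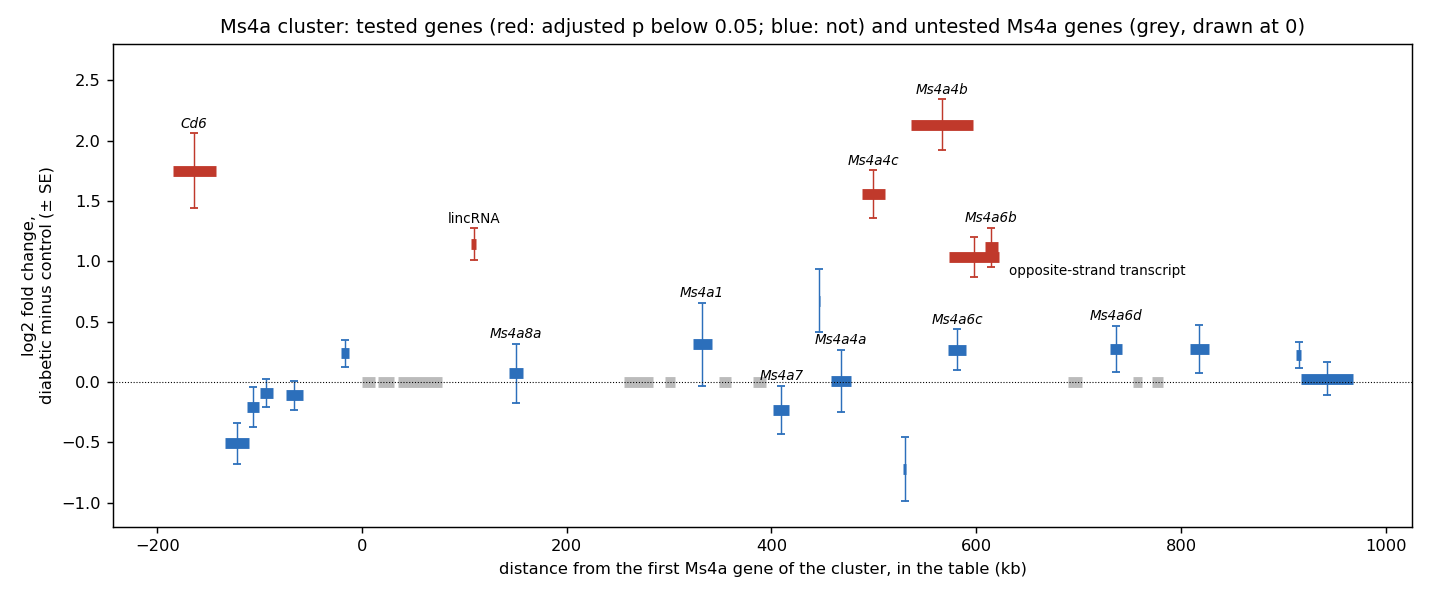
Position of each gene, as distance in kb from the start of the first Ms4a gene in the table, against its log2 fold change, diabetic minus control (± SE). Red genes passed, blue genes were tested and did not, unlabelled blue genes are neighbours without an Ms4a name, and grey bars are Ms4a genes under the filter drawn at 0. The Ms4a genes that passed lie within the stretch from Ms4a4c to Ms4a6b, which also holds Ms4a6c (0.27, not passed).

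The 3 risen members lie near each other on the + strand, with Ms4a4c (MGP_C57BL6NJ_G0025294) at 9186485 to 9208542, Ms4a4b (MGP_C57BL6NJ_G0025295) at 9234360 to 9294563 and Ms4a6b (MGP_C57BL6NJ_G0025298) at 9306634 to 9318756. The model of Ms4a4b in the table spans that of Ms4a6c (9270150 to 9288338, + strand) entirely. Reads in shared exons cannot be told apart, so the Ms4a4b and Ms4a6c values are uncertain to that extent. Ms4a6c, which lies inside, did not pass, and its reads summed to 7852 in diabetic and 7919 in control libraries. The second noncoding gene (MGP_C57BL6NJ_G0015775, 9270950 to 9320652, - strand) lies opposite Ms4a6c, Ms4a6b and the later part of the Ms4a4b model. It averaged 11.7 ± 2.79 FPKM in diabetic (SD, n = 4) and 5.14 ± 0.960 FPKM in control samples (SD, n = 5; log2 fold change 1.03, SE 0.17, limma adjusted p = 0.011). The strand setting of the counting is not given in the sources used here. Without it, reads of this gene cannot be told apart from those of Ms4a4b, Ms4a6c or Ms4a6b where they overlap. The noncoding gene had 844 reads in diabetic and 458 in control libraries. Ms4a6b had 12546 in diabetic and 7032 in control libraries, and Ms4a4b had 5788 in diabetic and 1273 in control libraries. The lowest diabetic value of the noncoding gene was in diabetic 3, where Ms4a6b was highest and Ms4a4b was lowest among diabetic samples.

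Since Ms4a4b and Ms4a4c rose together and are close copies, the bases before their starts are shown as well. The 250 bases are from RefSeq (GRCm38.p6), chr19:11443308-11443557 for Ms4a4b and chr19:11407411-11407660 for Ms4a4c, both on the + strand. Capitals in Ms4a4c mark bases that are not matched in the alignment with Ms4a4b.
Ms4a4b: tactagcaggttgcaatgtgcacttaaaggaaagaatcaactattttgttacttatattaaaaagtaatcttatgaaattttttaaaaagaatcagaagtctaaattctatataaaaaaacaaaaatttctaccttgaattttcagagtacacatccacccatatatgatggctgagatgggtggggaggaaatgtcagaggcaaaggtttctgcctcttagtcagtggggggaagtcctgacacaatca
Ms4a4c: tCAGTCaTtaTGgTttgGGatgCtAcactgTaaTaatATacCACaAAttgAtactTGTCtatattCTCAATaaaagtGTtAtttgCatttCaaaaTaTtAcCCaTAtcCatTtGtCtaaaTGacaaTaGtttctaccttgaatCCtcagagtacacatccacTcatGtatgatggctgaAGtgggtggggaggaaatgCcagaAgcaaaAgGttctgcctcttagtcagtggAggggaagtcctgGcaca

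These windows were 68.8% identical, and 65 bases of Ms4a4c were unmatched, 51 of them in the 125 bases farther from the start and 14 in the 125 nearer to it. The other 5 pairs among Ms4a4b, Ms4a4c, Ms4a6b and Ms4a6c reached 44.3% to 50%. The interferon-response motif (GAAA, any 2 bases, GAAA) and the motif TTCNNNGAA, where N is any base, were searched on both strands of these windows. The first occurs in 2.98% of 32851 RefSeq windows of 250 bases, and in none of the windows of the 8 members that the RefSeq table holds. The second occurs in 7.02% of the RefSeq windows, and also in none of those of the 8 members.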

How the data were processed

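Messenger RNA from 4 diabetic and 5 control samples was sequenced after a SMARTER library preparation, per the labels' protocols. The authors deposited FPKM values for 41096 genes with gene lengths and positions, per the file headers. The sources used here give no aligner, counting tool or strand setting. The builds GRCm38 and mm10 are named in the submitters' processing notes. FPKM times gene length gave whole reads (100% of values within 0.05 of a whole number). The divisors behind the deposited FPKM equalled median-of-ratios factors, 0.911 to 1.08 times the plain totals, so the values were already scaled between samples.

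All columns were matched to samples by title, and groups came from the labels. limma 3.58.1 in R 4.3.3 (lmFit, eBayes with trend and robust moderation) was run on log2(FPKM + 1) for genes of at least 1 FPKM in at least 4 samples, two-sided, with Benjamini-Hochberg adjustment. The fit was tested on simulated data. Exact permutation tests compared 4 relative levels, and 1 of these, the monocyte list and a few single genes are not reported here. Sequences were compared with Biopython 1.88 by global alignment. Alternatives were other pseudocounts, filters, moderation, weights, scaling, limma voom on recovered reads, a replicate block and left-out samples.

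The members, gene lists and tests were chosen with earlier results of these data known. Named genes were all Ms4a genes, the partner list, the nearest 3 genes in pattern for members that passed and the nearest 1 for others, and for each marker list up to 2 genes of smallest p; others were chosen after their values were seen, among them Adgre1, Csf1r, Cd68, Itgam, Cd79a and Retnla.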

Additional observations from a re-analysis of the deposited data

Results flagged for a closer look

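Ms4a6c in diabetic 3 stood at 124 FPKM, apart from the other 3 diabetic samples at 70.0 to 76.2 FPKM. Its gap to the nearest of them was 0.854 of the group's whole range, above Dixon's 95% limit for 4 samples. Diabetic 3 was also the highest diabetic sample for Ms4a4c, Ms4a4d, Ms4a6b, Ms4a6d and Ms4a7, and the lowest for Ms4a4b and Ms4a1. Without diabetic 3 the log2 fold change of Ms4a6c was 0.08 (limma adjusted p = 0.70). In all, 32 groups of values were examined in this way, and chance alone marks about 1 in 20.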

How the results depend on the processing

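Ms4a4b and Ms4a4c kept their direction and passed in all 19 alternatives (log2 fold changes 1.46 to 2.48 and 1.37 to 1.67). Ms4a6b passed in 18 of 19 (1.01 to 1.23). It did not pass with the replicate number as a block (1.06, limma adjusted p = 0.056). Leaving out 1 sample gave 1.98 to 2.34 for Ms4a4b, 1.43 to 1.67 for Ms4a4c and 1.02 to 1.23 for Ms4a6b, all passing.

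The count of genes that passed, 533, was 183 with no filter, 1304 with array weights, 62 with the replicate block, 1180 without diabetic 3 and control 2 (chosen after seeing the data), and 146 (without diabetic 4) to 1170 (without diabetic 3) when 1 sample was left out. With equal totals 259 rose and 302 fell, against 300 and 233 in the reported fit. The replicate numbers did not pair the samples (correlations of deviations 0.02, 0.16, -0.26 and -0.18; control 5 had no partner), and 1 of 4 diabetic samples correlated best with its own number.

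Values near 0 changed sign. Ms4a4a was -0.13 with array weights, -0.0099 with equal totals, -0.13 without diabetic 3 and control 2, and -0.19 to 0.20 with 1 sample left out. Ms4a8a was -0.056 with the replicate block and -0.056 to 0.25 with 1 left out. Ms4a7 relative to macrophage genes was 0.037 at a pseudocount of 5 and -0.14 to 0.072 with 1 left out. Ms4a4b relative to Cd3 genes was -0.25 to 0.039 with 1 left out. The cause of these changes was not tested. Ms4a4d passed in none of 17 alternatives, and rests on 40 reads in diabetic and 13 in control libraries.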
